A study of Oryza sativa Indica Group with 6 samples.

Results

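Cytochrome P450 genes were followed through the development of the rice male gametophyte. P450s are heme enzymes, most of them anchored in the endoplasmic reticulum, that insert oxygen into small molecules with electrons supplied by a reductase. In plants they make and inactivate hormones such as brassinosteroids, gibberellins, abscisic acid and jasmonate, and they build defence compounds and polymers of the pollen wall. The members were the genes with a name of the P450 nomenclature (CYP, a family number, a subfamily letter and a gene number) in the RefSeq gene table of rice, without CYP703A3, CYP88A5 and the kaurene oxidase and kaurenoic acid oxidase genes. The rule gave 33 genes, of which 24 had a probe set of their own on the array, out of 17905 genes with such a probe set. The 24 genes were measured by 28 of 22436 probe sets paired with a single gene.

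RNA came from field-grown plants of Oryza sativa Indica Group, variety Guichao No.2, with no treatment given in the labels. The 3 groups were uninucleate microspores (UNM, with a single nucleus), bicellular pollen (BCP, with a vegetative and a generative cell) and tricellular pollen (TCP, with sperm cells), each with 2 biological replicates on an Affymetrix array of its own. Each value is the log2 signal of a probe set, the group of probes designed for a transcript. Of 2 probe sets for a gene, the brighter over all arrays stood for it. A gene is said to rise or fall where its stage means lay at least 1 apart on the log2 scale and limma's Benjamini-Hochberg adjusted p, over all 57194 tested probe sets, was under 0.05. Levels are means ± SD over 2 arrays, and differences carry their standard error (SE). The p-values reflect only how far these samples spread, with each probe set's variance drawn by limma towards that of all probe sets. Their precision is limited by the number of arrays.

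Replicate arrays had a Pearson's r of 0.985 to 0.993 across probe sets. The 95th percentile of 64 probe sets for laboratory reporter genes, taken here as background, was 5.00 to 5.22 on the UNM arrays, 5.60 to 5.70 on the BCP arrays and 5.72 to 5.84 on the TCP arrays. The pollen markers followed the stage labels: EXPB9, EXPB10 and ADF-9 were each above that level on both arrays of BCP and of TCP and below it on both arrays of UNM. GBSS-I was so by its brightest probe set, while another of its probe sets was at 5.54 and 5.51 in UNM, against 12.52 and 12.51 in BCP. The samples are bulk RNA, in which fewer cells of a type and less RNA per cell cannot be told apart.

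Most P450 genes had low signal. Of the 24 genes, 10 were above the reporters' 95th percentile on both UNM arrays (41.7%, against 68.6% of all 17905 genes), 4 on both BCP arrays (16.7% against 55.2%) and 3 on both TCP arrays (12.5% against 44.6%). The 3 genes above it on all 6 arrays were CYP76M8, CYP76M6 and CYP71P1. A total of 11 genes exceeded it on no array. This percentile was itself higher on the BCP and TCP arrays than on the UNM arrays, so the counts do not rest on a common level. A probe set's level depends on its probes, and levels are therefore compared between stages and not between genes.

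Across the 3 stages 7 of the 24 genes changed by the moderated F test with a range of stage means of at least 1, against 63.4% of all genes. The share for P450 genes was 29.2%. Of the 24 genes, 6 changed with their highest stage mean in UNM, against 33.4% of all 17905 genes. Only CYP76M8 changed with its highest mean in TCP (11.8% of all genes), and 0 did so in BCP (18.2% of all genes). Each of these shares of the 24 genes was below that of all genes. Among changed genes alone, 6 of the 7 P450 genes were highest in UNM, against 5974 of 11349 genes. The 7 genes were CYP707A6, CYP707A5, CYP74A1, CYP734A4, CYP90A4, CYP714D1 and CYP76M8, with adjusted p from 1.89e-06 for CYP707A6 to 0.00151 for CYP76M8 by limma.

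**Figure D1:**
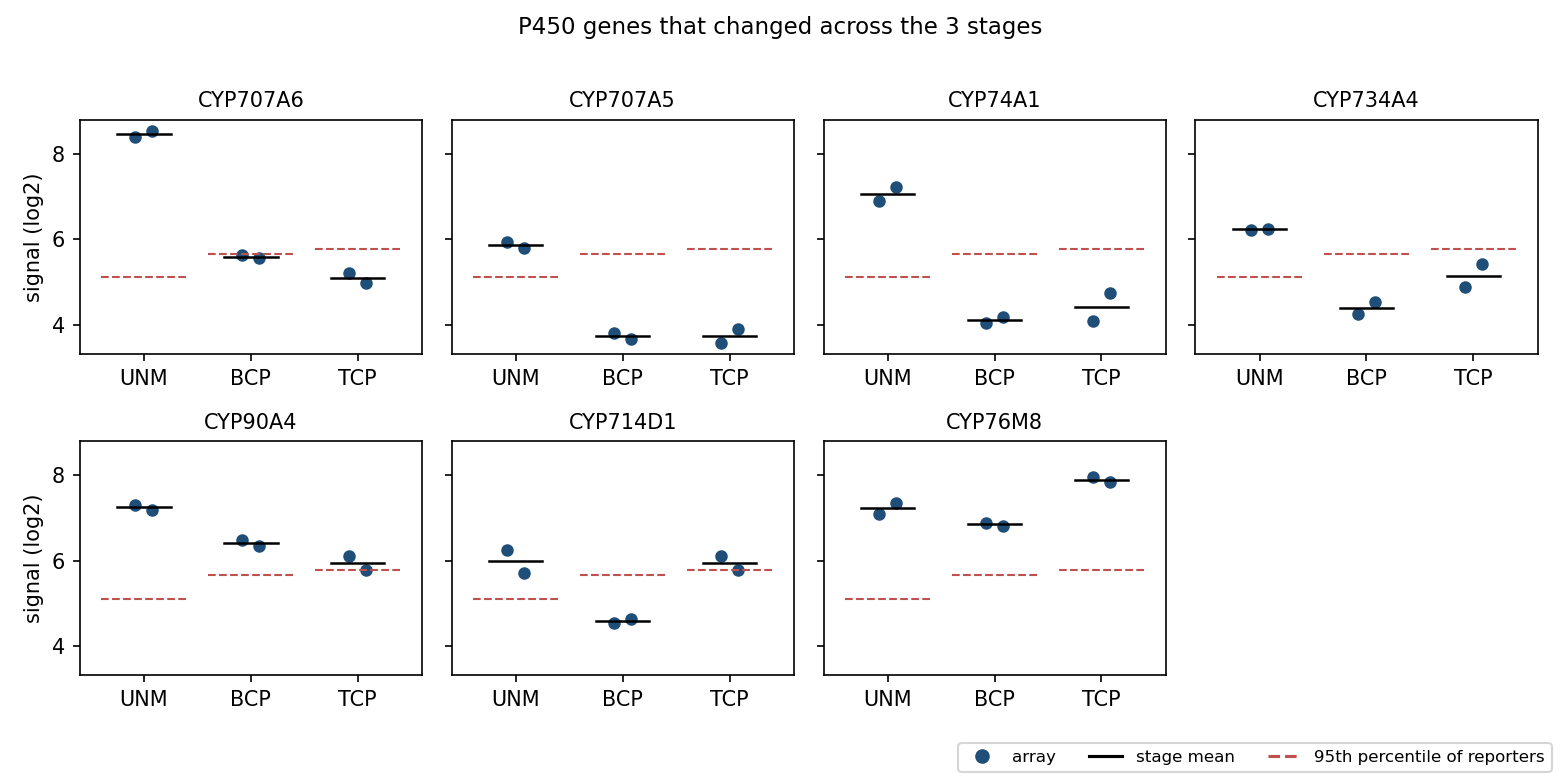
Signal on the log2 scale (vertical axis) of the 7 P450 genes that changed across the stages, by stage (horizontal axis). Points are single arrays, black lines stage means and red dashed lines the mean of the 2 arrays' reporter 95th percentiles. CYP707A6, CYP707A5, CYP74A1, CYP734A4 and CYP90A4 were highest in UNM, CYP714D1 was lowest in BCP, and CYP76M8 was highest in TCP, above BCP by 1.04 as deposited but not with the hybridization controls set equal (-0.19).

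The comparison of BCP with UNM addressed what changed as the microspore divided into a vegetative and a generative cell. Of the 24 genes 5 fell, which is 20.8% against 25.1% of all genes, and 0 rose, against 17.1% of all genes. The share that fell was thus near the background of the array. The 5 genes belonged to hormone metabolism: both measured abscisic acid hydroxylases, an allene oxide synthase of jasmonate synthesis, a brassinosteroid-inactivating enzyme and a gibberellin-inactivating enzyme. Hormone groups also made up most of the 24 genes. They held 2 abscisic acid hydroxylases, 4 allene oxide synthases and 3 gibberellin-inactivating enzymes. For brassinosteroids they held 2 genes of inactivation and 3 of synthesis. At an adjusted p under 0.05 without a minimum difference, limma gave 9 genes lower and 0 higher, against 35.7% and 24.9% of all genes. The median difference was -0.21 for the 24 genes and -0.12 for all genes.

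In the comparison of TCP with BCP, which spans the division that makes the sperm cells, 2 of the 24 genes rose (8.33% against 8.52% of all genes) and 0 fell (28.6% of all genes). The rises were CYP714D1 and CYP76M8. Without a minimum difference, limma gave 8 genes higher and 2 lower at an adjusted p under 0.05, against 18.5% and 37.5% of all genes. The median difference was 0.29 for the 24 genes and -0.06 for all genes. This direction depended on how arrays were scaled to each other: with the hybridization controls, labelled transcripts added before hybridization, set equal between arrays, 0 P450 genes rose and 10 fell, against 3.14% and 67.7% of all genes. Of the 18 genes with a difference above 0 as deposited, 17 were then below 0.

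In the comparison of TCP with UNM, which spans both steps and shares its arrays with them, 5 of the 24 genes fell (20.8% against 37.7% of all genes) and 0 rose (14.4% of all genes). The falls were CYP707A6, CYP707A5, CYP74A1, CYP90A4 and CYP734A4. After a repeated quantile normalization 2 genes rose and 3 fell (18.1% and 34.1% of all genes), and the same counts held with the 75th percentiles set equal (20% and 32.2% of all genes). CYP76M8 rose under both of these, CYP76M6 under the first and CYP74A3 under the second. With the hybridization controls set equal 0 rose and 21 fell, against 6.59% and 76.5% of all genes, and all 13 differences above 0 turned below it. CYP707A6, CYP707A5 and CYP74A1 fell under each of these scalings, with differences from -4.87 to -3.02, from -3.62 to -1.76 and from -4.14 to -2.29 over all alternatives tried.

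**Figure D2:**
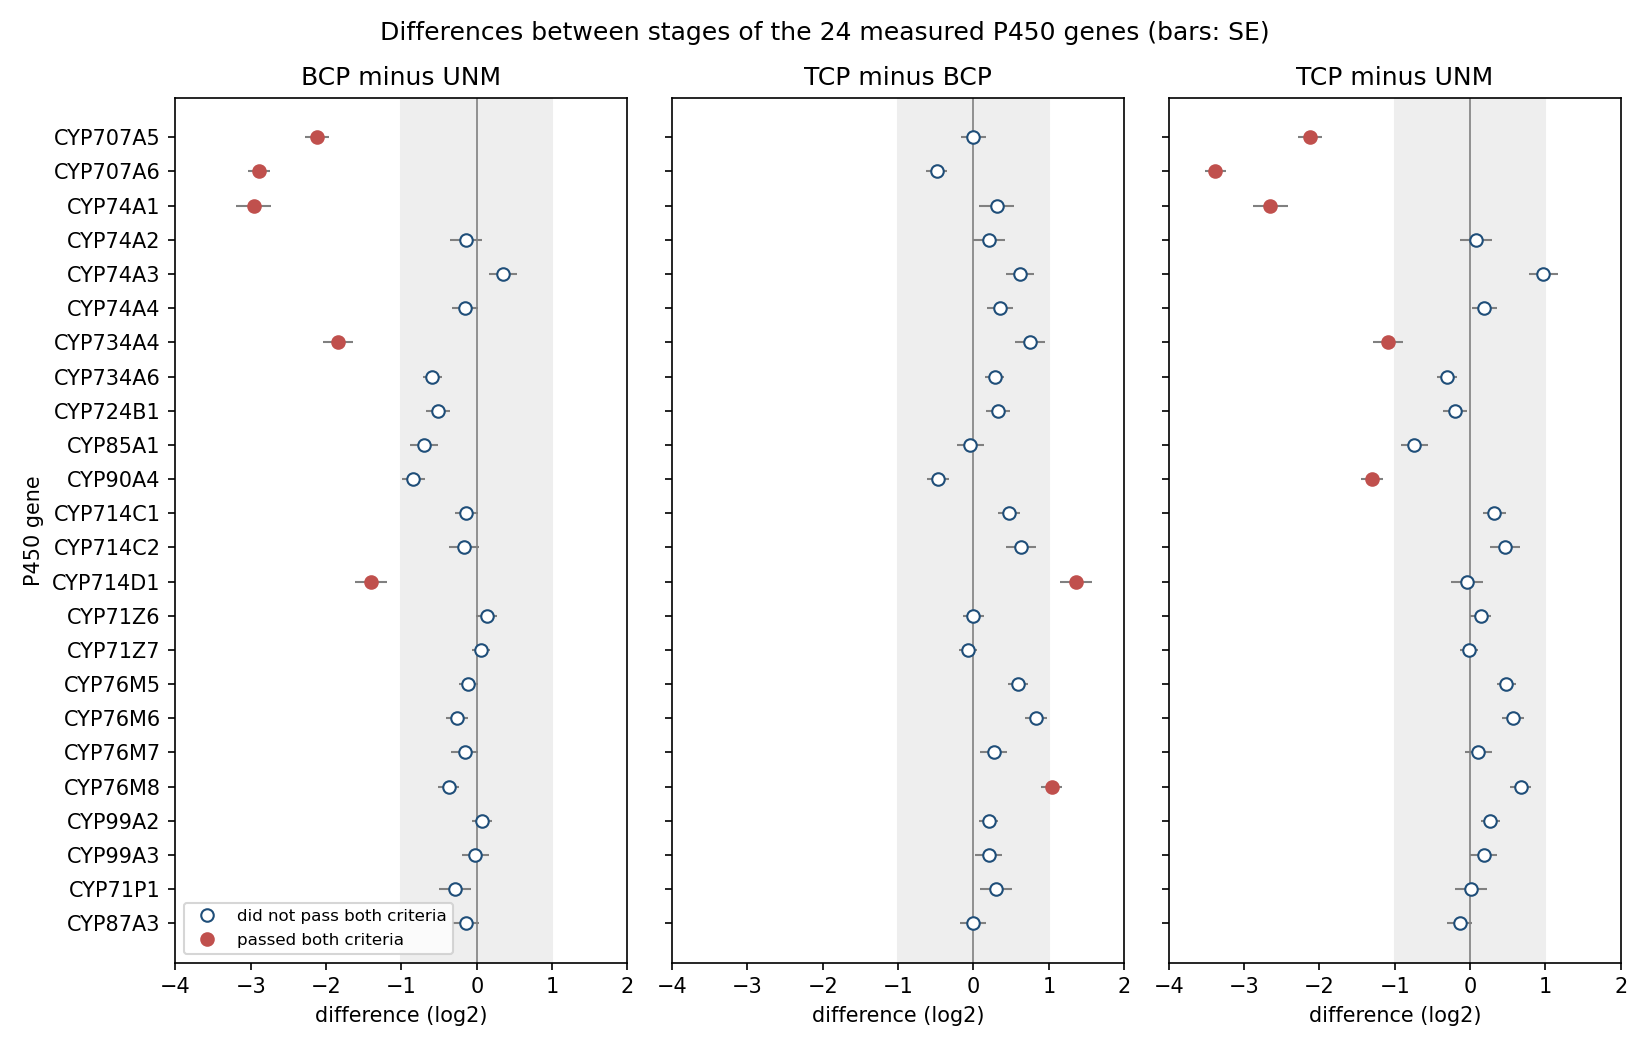
Difference between stage means on the log2 scale (horizontal axis) for each of the 24 measured P450 genes (vertical axis), with BCP minus UNM, TCP minus BCP and TCP minus UNM in 3 panels. Bars are standard errors, filled points passed both criteria and the grey band marks differences under 1. BCP minus UNM had 5 filled points, all below -1, and TCP minus BCP had 2, both above 1.

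Abscisic acid is inactivated by 8'-hydroxylases of the CYP707A family. CYP707A6, also named ABA8OX2 (gene 4345810), had signals of 8.41 and 8.55 in UNM, 5.63 and 5.56 in BCP, and 5.22 and 4.99 in TCP. Both UNM arrays were above all 4 later arrays, by a gap of more than 2 on the log2 scale. The difference was -2.89 (SE 0.14) for BCP minus UNM, with an adjusted p of 4.78e-06 by limma, a 7.40-fold lower signal, with 1 of the 2 BCP arrays above background. For TCP minus BCP it was -0.49 (SE 0.14), under the minimum difference, and for TCP minus UNM -3.38 (SE 0.14), with an adjusted p of 1.07e-06. In TCP both arrays were under the reporters' 95th percentile, so that the signal there was at least 6.50-fold lower than in UNM when the TCP arrays are taken at that level. The probe set of CYP707A6 is of a kind shared by several transcripts, and no other probe set of the gene was measured.

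CYP707A5, also named ABA8OX1 (gene 9269675), had 5.94 and 5.79 in UNM, 3.81 and 3.66 in BCP, and 3.57 and 3.90 in TCP. It was above background in UNM and below it on all 4 later arrays. BCP minus UNM was -2.12 (SE 0.16), with an adjusted p of 3.69e-05 by limma. TCP minus UNM was also -2.12 (SE 0.16), with an adjusted p of 2.3e-05, while BCP and TCP were at 3.74 ± 0.10 and 3.74 ± 0.23. Against the reporters' level the bound is only at least 1.16-fold lower in BCP and at least 1.06-fold lower in TCP than in UNM. The related gene CYP707A7 had no probe set of its own.

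On the other side of abscisic acid metabolism, ABA1 encodes zeaxanthin epoxidase, an early enzyme of its synthesis. Its signal was 5.10 and 4.86 in UNM, 4.32 and 4.50 in BCP and 7.50 and 7.56 in TCP. TCP minus BCP was 3.12 (SE 0.14), with an adjusted p of 4.14e-06 by limma, and at least 3.67-fold higher with BCP taken at the reporters' level. The receptor gene PYL11 had 4.61 and 4.54 in TCP, against 5.39 and 5.88 in UNM, a difference of -1.06 (SE 0.19) with an adjusted p of 0.00272, and it did not pass at -0.70 after centring on the 75th percentile or at -0.82 without UNM replicate 2. Of the 2 genes of this list, 1 rose and 0 fell in TCP against BCP (8.52% and 28.6% of all genes). In TCP against UNM 1 rose and 1 fell (14.4% and 37.7% of all genes).

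Allene oxide synthases, the CYP74A family, are P450s that need neither oxygen nor a reductase, and they turn lipid hydroperoxides into the precursor of jasmonate. CYP74A1, also named AOS1 and PRECOCIOUS (gene 4334233), had 6.91 and 7.23 in UNM, 4.04 and 4.19 in BCP, and 4.10 and 4.75 in TCP. Only the UNM arrays were above background. BCP minus UNM was -2.96 (SE 0.23), with an adjusted p of 5.06e-05 by limma, and at least 2.67-fold lower against the reporters' level. TCP minus UNM was -2.65 (SE 0.23), with an adjusted p of 6.07e-05, and at least 2.45-fold lower.

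The other 3 genes of the family did not pass in any comparison, and none was above background on any array. CYP74A3, or AOS3 (gene 4328742), had its highest values in TCP, at 5.29 and 5.55, against 5.01 and 4.60 in BCP and 4.59 and 4.33 in UNM. Its difference of 0.97 (SE 0.19) for TCP minus UNM had an adjusted p of 0.00441 by limma and missed the minimum difference. It passed at 1.10 without UNM replicate 1 and at 1.10 without TCP replicate 1, and was -0.53 with the hybridization controls set equal. CYP74A4, or AOS4 (gene 4328743), which directly neighbours CYP74A3 in the RefSeq gene order, ranged from 3.64 to 4.26 over the 6 arrays. CYP74A2, or AOS2 (gene 4332121), ranged from 4.21 to 4.85.

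A list for jasmonate synthesis held 14 further genes, picked by family name only (LOX, AOC, OPR and JAR). Which of them act in jasmonate synthesis was not tested. Of the 14 genes, 1 rose and 3 fell in BCP against UNM (17.1% and 25.1% of all genes). In TCP against BCP 2 rose and 1 fell (8.52% and 28.6% of all genes). In TCP against UNM 1 rose and 3 fell (14.4% and 37.7% of all genes). AOC, the allene oxide cyclase that takes up the product of the synthases, had 9.50 and 9.39 in UNM, 6.66 and 6.42 in BCP, and 7.61 and 7.70 in TCP. BCP minus UNM was -2.90 (SE 0.14), with an adjusted p of 4.6e-06 by limma. Its TCP arrays lay between those of the other stages, with TCP minus BCP at 1.11 (SE 0.14). That difference was 0.96 after centring on the median, 0.99 without BCP replicate 2 and -0.12 with the hybridization controls set equal, and did not pass there. LOX5, a lipoxygenase, a family that makes lipid hydroperoxides, fell at each step, with -2.63 (SE 0.18) for BCP minus UNM and -1.62 (SE 0.18) for TCP minus BCP.

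JAR1, the enzyme that joins jasmonate to isoleucine, moved in the other direction. Its signal was 4.55 and 4.53 in UNM, 8.55 and 8.19 in BCP, and 9.53 and 9.42 in TCP. BCP minus UNM was 3.83 (SE 0.15), with an adjusted p of 2.21e-06 by limma, and at least 9.58-fold higher with UNM taken at the reporters' level. The step of TCP minus BCP was 1.10 (SE 0.15). It was 0.95 after centring on the median, 0.92 without BCP replicate 2 and -0.13 with the hybridization controls set equal, and did not pass there. In TCP after that scaling 0 of the 14 genes of the jasmonate list rose and 5 fell against BCP, beside 3.14% and 67.7% of all genes.

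**Figure D3:**
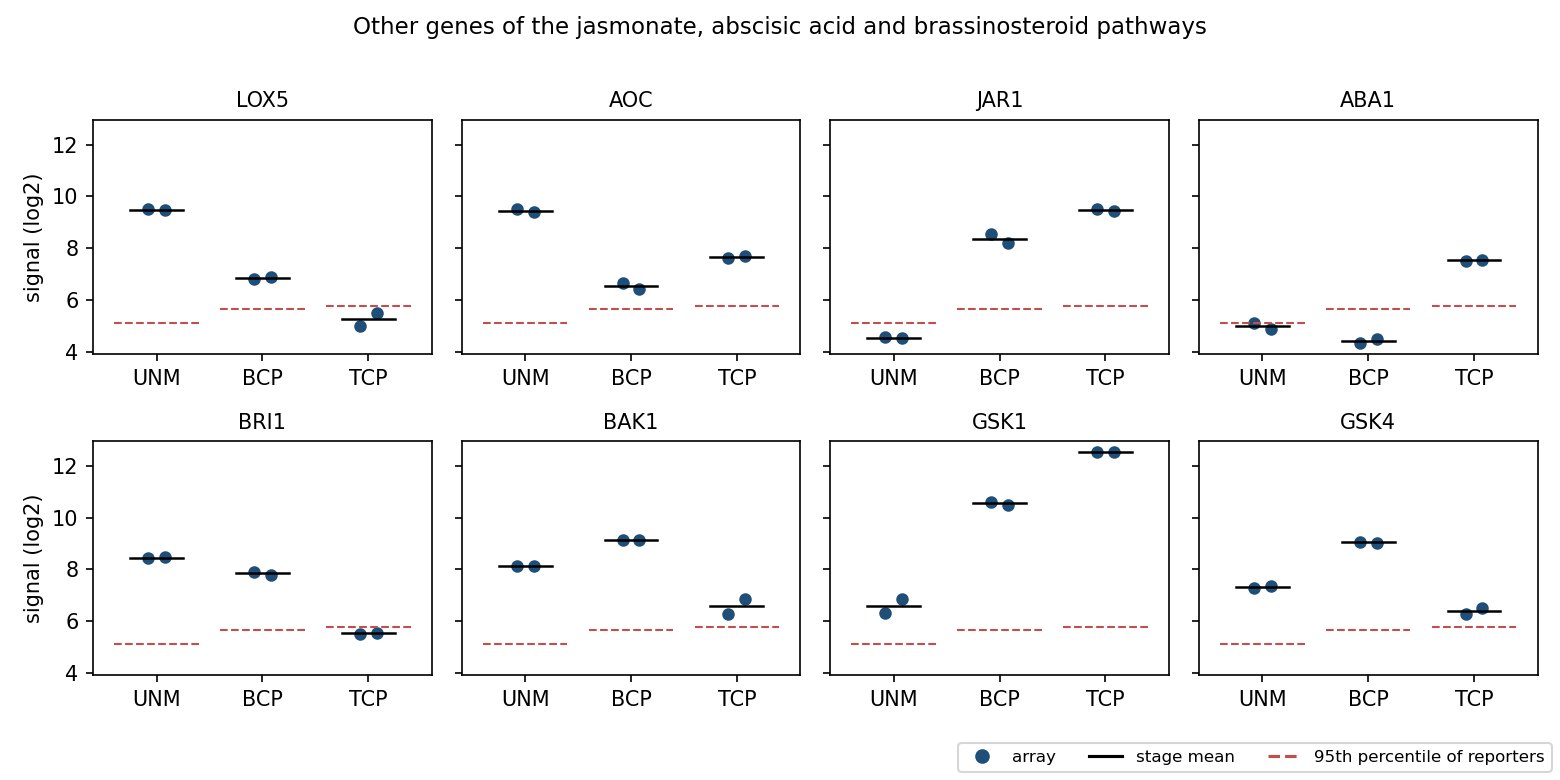
Signal on the log2 scale (vertical axis) by stage (horizontal axis) of 8 genes that are not P450s. They come from the jasmonate, abscisic acid and brassinosteroid lists, which were picked by name. Points are single arrays, black lines stage means and red dashed lines the mean reporter 95th percentile. LOX5 and AOC were highest in UNM, ABA1, GSK1 and JAR1 in TCP (JAR1 not with the hybridization controls set equal, where TCP minus BCP was -0.13), BAK1 and GSK4 in BCP, and BRI1 was under the reporters' level only in TCP.

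Brassinosteroids are inactivated by enzymes of the CYP734A family. CYP734A4 (gene 4341450) had 6.23 and 6.24 in UNM, 4.26 and 4.54 in BCP, and 4.88 and 5.42 in TCP. Both UNM arrays were above all others, and the later arrays were all under the reporters' level. BCP minus UNM was -1.84 (SE 0.20), with an adjusted p of 0.000288 by limma, and at least 1.50-fold lower against that level. TCP minus UNM was -1.09 (SE 0.20), with an adjusted p of 0.00329. This second difference was -0.96 after a repeated quantile normalization, -0.72 after centring on the 75th percentile and -0.82 without TCP replicate 1, and did not pass there. TCP minus BCP was 0.75 (SE 0.20) with all arrays, under the minimum difference, 1.02 without TCP replicate 1 and -0.48 with the hybridization controls set equal. CYP734A6 (gene 4325222) had 5.27 and 5.07 in UNM, 4.60 and 4.57 in BCP, and 4.93 and 4.79 in TCP, and passed in 0 comparisons.

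Of the 6 genes of brassinosteroid synthesis 3 were measured. CYP90A4, or CPD2 (gene 4351461), was above background on all UNM and BCP arrays, with 7.31 and 7.19 in UNM, 6.48 and 6.35 in BCP, and 6.11 and 5.79 in TCP. The stages did not overlap, and each was below the stage before it. The steps were -0.84 (SE 0.15) for BCP minus UNM and -0.47 (SE 0.15) for TCP minus BCP, both under the minimum difference. Over both steps TCP minus UNM was -1.30 (SE 0.15), with an adjusted p of 0.000309 by limma, a 2.47-fold lower signal. It was -0.90 after a repeated quantile normalization and -0.94 after centring on the 75th percentile, and did not pass there. With the hybridization controls set equal the steps were -1.10 and -1.70 and both passed.

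CYP85A1, a brassinosteroid C-6 oxidase also named DWARF (gene 4333399), had 5.03 and 5.21 in UNM, 4.65 and 4.19 in BCP, and 4.36 and 4.41 in TCP. Its difference of -0.74 (SE 0.18) for TCP minus UNM had an adjusted p of 0.0112 by limma and missed the minimum difference. CYP724B1, or D11 (gene 4336116), had 4.95 and 5.07 in UNM, 4.31 and 4.68 in BCP, and 4.84 and 4.79 in TCP. Its probe set is of a kind that may also match other transcripts. Neither CYP85A1 nor CYP724B1 was above background in BCP or TCP. CYP90A3, CYP90B2 and CYP90D2 of synthesis, and CYP734A2 and CYP734A5 of inactivation, had no probe set of their own.

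Of 7 genes of the brassinosteroid response 3 rose and 1 fell in BCP against UNM (17.1% and 25.1% of all genes). In TCP against BCP 1 rose and 3 fell (8.52% and 28.6% of all genes). In TCP against UNM 1 rose and 2 fell (14.4% and 37.7% of all genes). BRI1, the receptor, had 8.43 and 8.48 in UNM, 7.90 and 7.80 in BCP, and 5.49 and 5.55 in TCP. It fell in TCP against BCP, by a difference of -2.33 (SE 0.12) with an adjusted p of 7.51e-06 by limma. Both TCP arrays were under the reporters' level, and the bound is at least 4.20-fold lower. BAK1, of the co-receptor kinases, differed by -2.56 (SE 0.20) and GSK4, of the GSK3-like kinases, by -2.65 (SE 0.13) in the same comparison. In BCP against UNM the rise of BAK1 was 1.0 (SE 0.20), at the minimum difference. It was 0.74 with the hybridization controls set equal and 0.99 without BCP replicate 1, and did not pass there.

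GSK1, also a GSK3-like kinase, had 6.31 and 6.84 in UNM, 10.62 and 10.48 in BCP, and 12.55 and 12.54 in TCP. TCP minus UNM was 5.97 (SE 0.19), with an adjusted p of 3.41e-07 by limma. That probe set is of a kind that may also match other transcripts. The other probe set of the gene ranged from 2.78 to 3.23 and passed in no comparison. BZR1, a transcription factor of the response, fell in BCP against UNM by 1.17 on the log2 scale (SE 0.16), with all of its arrays under the reporters' level.

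Gibberellins are inactivated by CYP714D1, also named EUI1 (gene 4339131), which oxidises them at a double bond. Its signal was 6.26 and 5.72 in UNM, 4.54 and 4.64 in BCP, and 6.11 and 5.79 in TCP. The BCP arrays were below all 4 others, and those of UNM and TCP overlapped. BCP minus UNM was -1.40 (SE 0.21), with an adjusted p of 0.00152 by limma, and at least 1.26-fold lower against the reporters' level. TCP minus BCP was 1.36 (SE 0.21), with an adjusted p of 0.00196, and 0.13 with the hybridization controls set equal. TCP minus UNM was -0.04 (SE 0.21), or -1.53 with those controls set equal, and TCP replicate 2 was itself under the reporters' level.

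CYP714C1 (gene 4351345) and CYP714C2 (gene 4351346), direct neighbours in the RefSeq gene order, were under the reporters' level on all arrays and passed in no comparison. Their probe sets ranged from 3.38 to 4.83 for CYP714C1 and from 2.78 to 5.35 for CYP714C2, 2 probe sets each. CYP714B1 and CYP714B2 had no probe set of their own. Of the 2 measured gibberellin oxidase genes, GA20OX2 and GA20OX3, 0 rose and 0 fell in each of the 3 comparisons. Among all genes 8.52% to 17.1% rose and 25.1% to 37.7% fell in these comparisons. Neither of the 2 genes was above the reporters' level on both arrays of any stage.

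The 8 P450 members grouped under diterpenoid phytoalexins, antimicrobial compounds that rice makes on infection, were all measured. Of the 8 genes 0 rose and 0 fell in BCP against UNM (17.1% and 25.1% of all genes). In TCP against BCP 1 rose and 0 fell (8.52% and 28.6% of all genes). In TCP against UNM 0 rose and 0 fell (14.4% and 37.7% of all genes). CYP76M8 (gene 4329722), a hydroxylase of this pathway, had 7.10 and 7.35 in UNM, 6.88 and 6.82 in BCP, and 7.96 and 7.83 in TCP. The 3 stages did not overlap, and the order from low to high was BCP, UNM and TCP. TCP minus BCP was 1.04 (SE 0.14), with an adjusted p of 0.000978 by limma, a 2.06-fold higher signal just past the minimum difference. It was 0.89 after centring on the median, 0.98 without TCP replicate 1 and -0.19 with the hybridization controls set equal, and did not pass there. TCP minus UNM was 0.67 (SE 0.14), with a range over the alternatives from -0.82 with the hybridization controls set equal to 1.40 after a repeated quantile normalization. The probe set of CYP76M8 is of a kind that may also match other transcripts and is the only one of the gene.

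CYP76M6 (gene 4329730) had a like order, with 6.25 and 6.22 in UNM, 6.03 and 5.91 in BCP, and 6.62 and 6.98 in TCP. TCP minus BCP was 0.83 (SE 0.15), with an adjusted p of 0.00502 by limma, under the minimum difference. It reached 1.23 after a repeated quantile normalization, 1.02 after centring on the 75th percentile and 1.01 without TCP replicate 1, and was -0.40 with the hybridization controls set equal. The other probe set of CYP76M6 had 5.40 and 4.63 in TCP, against 5.03 and 4.80 in BCP, a difference of 0.09 (SE 0.25).

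In the RefSeq gene order CYP76M5, CYP76M8, CYP71Z6, CYP71Z7 and CYP76M6 follow each other on 1 chromosome with 1, 3, 1 and 4 other genes between them. None of them but CYP76M8 passed in TCP against BCP. CYP76M5 (gene 4329721), under the reporters' level throughout, had 3.80 and 4.05 in TCP, against 3.36 and 3.31 in BCP, a difference of 0.59 (SE 0.13). CYP71Z6 (gene 4329725) and CYP71Z7 (gene 4329726) ranged from 2.79 to 3.11 and from 3.95 to 4.10 over the 6 arrays, with differences of 0.00 (SE 0.14) and -0.07 (SE 0.12).

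The gene that the RefSeq gene table names CYP76M7 (gene 4341447) lies elsewhere, with 5 other genes between it and CYP734A4. It ranged from 2.76 to 3.34. Whether this gene is the enzyme known by that name was not tested. CYP99A2 (gene 4335096) and CYP99A3 (gene 4335091), of momilactone synthesis, ranged from 4.86 to 5.23 and from 4.48 to 5.00. They lie in 1 chromosome region with 6 other genes between them. None of these 3 genes was above background on any array, and none passed in any comparison.

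CYP71P1 (gene 4351945), the tryptamine 5-hydroxylase that makes serotonin and is also named SL, was above background on all 6 arrays. It had 6.36 and 6.62 in UNM, 6.43 and 5.97 in BCP, and 6.67 and 6.33 in TCP, and the stages overlapped. The difference of TCP minus BCP was 0.30 (SE 0.21), with an adjusted p of 0.305 by limma. Its other probe set ranged from 3.04 to 3.36. CYP87A3 (gene 4336709) ranged from 4.81 to 5.25, with overlapping stages. CYP78A11, named PLA1 and known for the timing of leaf initiation, had no probe set of its own.

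**Figure D4:**
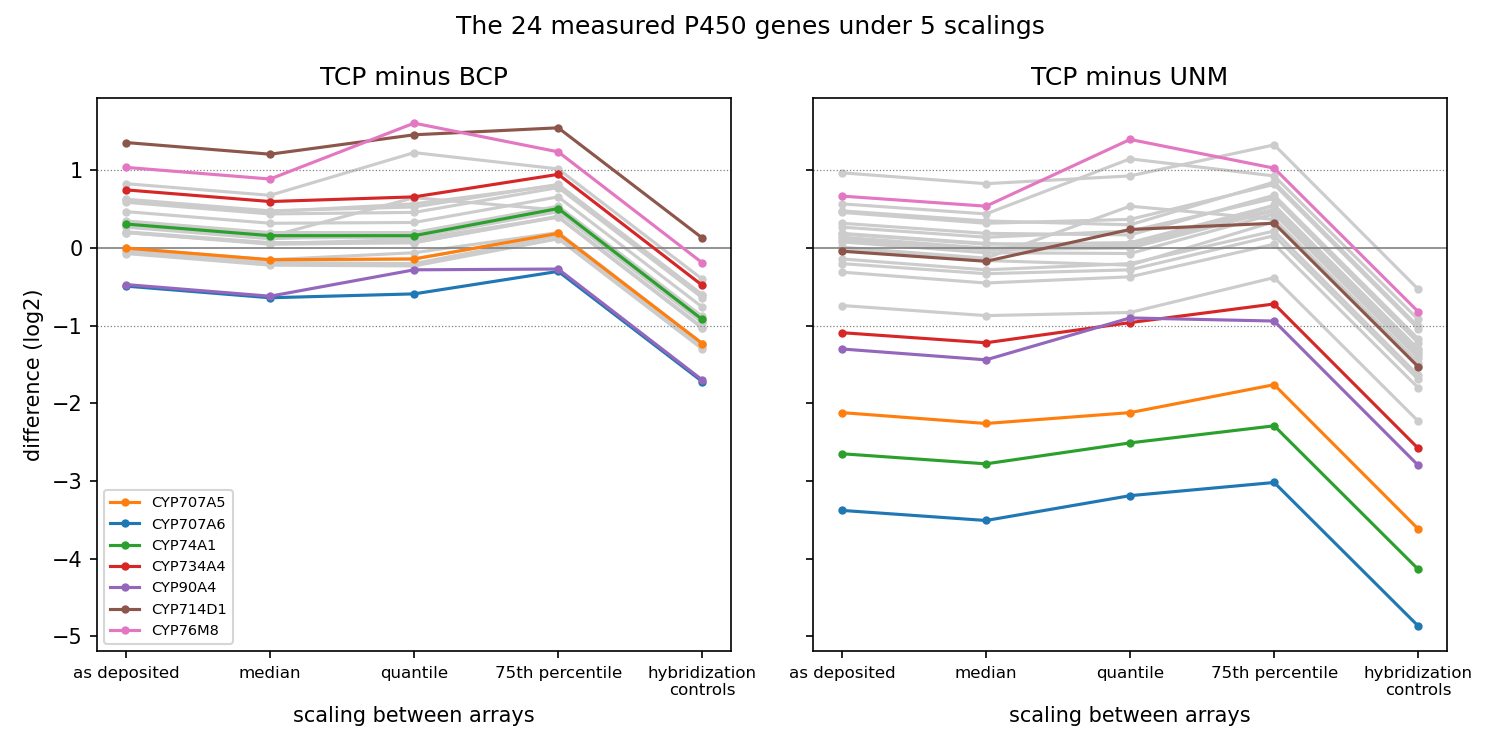
Difference on the log2 scale (vertical axis) of the 24 P450 genes as deposited and under 4 other scalings between arrays (horizontal axis), with TCP minus BCP on the left and TCP minus UNM on the right. Coloured lines are the 7 genes that changed across the stages, grey lines the other 17 and dotted lines the minimum difference of 1. CYP714D1 and CYP76M8 lost their rise in TCP against BCP with the hybridization controls set equal, while CYP707A6, CYP707A5 and CYP74A1 stayed below -1 for TCP minus UNM under each scaling shown.

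Most markers of the anther wall fell in the same comparisons as CYP707A6, CYP707A5, CYP74A1 and CYP734A4. CYP90A4 fell only in TCP against UNM. CYP714D1 was near its UNM level again in TCP, with TCP minus UNM at -0.04 (SE 0.21) as deposited. Of 10 markers of the anther wall and its inner layer, the tapetum, 7 fell and 0 rose in BCP against UNM. Among all genes 25.1% fell and 17.1% rose. In TCP against UNM 8 markers fell and 0 rose, against 37.7% and 14.4% of all genes. The log2 of their summed signal was 12.61 and 12.65 in UNM, 9.0 and 8.9 in BCP, and 7.94 and 7.81 in TCP. GAMYB alone was at 8.49 and 8.25 in BCP and did not pass in BCP against UNM. PTC1 and RAFTIN1 were under the reporters' level on all arrays and passed in no comparison. C6, which encodes a lipid transfer protein, was at 10.82 ± 0.03 in UNM, and C6, C4 and CP1 were under the reporters' level on all later arrays. For actin the 3' probe set exceeded the middle one, a sign of RNA quality, by 3.06 and 3.15 in UNM, 1.93 and 1.81 in BCP, and 1.90 and 1.91 in TCP. For GAPDH the same difference was 1.29 and 0.71 in UNM, 1.10 and 0.91 in BCP, and 1.60 and 1.51 in TCP, with UNM and BCP overlapping. The part of these in the P450 values was not tested.

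Of 3 green tissue genes 1 fell in BCP against UNM, and of 4 meiocyte genes 1 rose. The green tissue gene that fell, CAB2R, was at 11.29 and 11.41 in UNM and under the reporters' level on all later arrays. RBCS1 was under that level throughout, and RBCS passed only as a rise in TCP against UNM, of 1.01 (SE 0.18). The mean signal of the hybridization controls was 7.74 and 7.18 in UNM, 7.81 and 7.64 in BCP, and 9.0 and 8.9 in TCP. Further lists of pathways with no measured P450 member gave 2 rises and 4 falls of 13 cytokinin genes, 0 and 2 of 4 strigolactone genes, and 2 and 10 of 20 phenylpropanoid genes in BCP against UNM, where 17.1% of all genes rose and 25.1% fell. The names searched for P450 reductases, cytochrome b5 and other pollen wall genes matched 0 measured genes.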

How the data were processed

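The authors deposited RMA values, per the submitters' processing notes, and the values are log2 signals by probe set and array. The version of RMA is not given in the sources used here, nor is the set of arrays it normalised jointly. No further scaling was applied. The 187 control and reporter probe sets were left out of the tests. Probe sets were paired with genes through the platform's annotation, and genes with names through the RefSeq gene table (assembly ASM3414082v1, japonica rice), of which no coordinates are printed.

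A linear fit of all 6 arrays with stage as the factor was made with limma 3.58.1 under R 4.3.3 (residual degrees of freedom 3, prior 3.87), checked on simulated data. Stage differences were tested two-sided, and change across the stages by a moderated F test, with Benjamini-Hochberg adjustment over 57194 probe sets. Where a stage was under the reporters' 95th percentile on both arrays, "at least" folds take each array at the higher of its own value and that level.

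The rule for named genes took P450 genes with a range of stage means of at least 2, every gene of the hormone groups, and up to 3 passing genes per pathway list. The brassinosteroid response list went past that limit, with BRI1, BAK1, GSK4, GSK1 and BZR1 named. Passing genes of the cytokinin, strigolactone and phenylpropanoid lists were counted but not named. The phytoalexin genes, CYP71P1 and CYP87A3 fall outside the rule and are described because every member is accounted for. Members and lists were chosen with earlier results of these data known. In the lists, matches by name to a bZIP factor, to a cystatin and to zeaxanthin epoxidase as a meiocyte gene were removed. Alternatives were 4 other scalings, filters on dim and on shared probe sets, each probe set on its own, no minimum difference or one of 2, a replicate block, fits of 2 stages alone, a robust prior, a prior with an intensity trend, and each array left out. Shared probe sets are those of a kind that is common to several transcripts or may match others.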

Additional observations from a re-analysis of the deposited data

How the results depend on the processing

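The 5 falls from BCP over UNM were called under every scaling, with a trend or robust prior, with only the 2 stages compared and without any single array. The exceptions were CYP707A6, whose probe set is absent without shared probe sets (4 called), and the minimum difference of 2, with which CYP714D1 and CYP734A4 were lost (3 called). Without a minimum difference 9, 10 and 10 genes were called for BCP versus UNM, TCP versus BCP and TCP versus UNM, and 12 across the 3 stages. With a minimum of 2 these counts were 3, 0 and 3, and 3 across the stages. Scaling by the hybridization controls gave 10 genes for TCP versus BCP, 21 for TCP versus UNM and 21 across the stages. That scaling lowers every TCP minus BCP difference by the same amount, and the median of all probe sets was then -1.09, against 0.14 as deposited. For TCP minus UNM that median was 0.20 as deposited, -1.30 with these controls set equal and 0.56 after centring on the 75th percentile. For TCP versus BCP, centring on the median left 1 gene, as did leaving out shared probe sets. Leaving out each array gave 5 to 5, 2 to 3 and 5 to 6 genes for the 3 comparisons, and 7 to 8 across the stages.

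After scaling by the hybridization controls 17 of the 18 P450 differences above 0 turned for TCP minus BCP and all 13 for TCP minus UNM. Those with a call as deposited or under that scaling were, for TCP minus BCP, CYP71Z6 (-1.23), CYP74A2 (-1.02), CYP76M8 (-0.19), CYP99A2 (-1.03), CYP99A3 (-1.03), and, beside the P450 genes, BZR1 (-1.04), AOC (-0.12) and JAR1 (-0.13). For TCP minus UNM they were CYP714C1 (-1.17), CYP714C2 (-1.04), CYP71P1 (-1.48), CYP71Z6 (-1.35), CYP74A2 (-1.42), CYP74A4 (-1.30), CYP76M5 (-1.01), CYP76M7 (-1.38), CYP99A2 (-1.22) and CYP99A3 (-1.31).

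Deviations of same-numbered arrays from their stage means had correlations of -0.048, 0.010 and -0.072 between stages. With 2 arrays a stage, such values cannot exclude a pairing of the samples by replicate number. With the replicate block 5, 2 and 5 genes were called for the 3 comparisons and 7 across the stages, as without it. Signal over background also limits these values, since 11 of the 24 genes were above the reporters' level on no array.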
